A study of Mus musculus with 6 samples.

Results

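Skeletal muscle releases calcium at the triad, where a transverse tubule of the surface membrane lies between sacs of sarcoplasmic reticulum. The dihydropyridine receptor in the tubule senses voltage and opens the ryanodine receptor in the reticulum, and junctophilins, triadin and other junctional proteins hold the membranes and the release machinery in place. Myoblasts begin to make these proteins as they differentiate and fuse into myotubes. The 10 genes described here encode ryanodine receptors (Ryr1, Ryr3), dihydropyridine receptor subunits (Cacna1s, Cacng1, Cacnb1), the coupling adaptor Stac3, junctophilins (Jph1, Jph2) and the triad proteins Jsrp1 and Trdn. They were taken by symbol from comparison tables of 27179 genes, and all 10 were found and tested in both tables.

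Messenger levels were read by RNA sequencing of C2C12, a mouse myoblast line that grows without limit, 48 h after differentiation was induced in medium with horse serum and insulin. Cells of 3 groups, with 2 libraries each that the series text calls biological duplicates, stably carried a non-targeting scrambled shRNA, one directed at BAF250A, or one directed at BRD9, and no other agent or allele is named. BAF250A, encoded by Arid1a, is a subunit of BAF, a form of the SWI/SNF enzymes that move nucleosomes, and BRD9 is a subunit of the form called ncBAF. The title of the series asks whether these forms are needed differently in muscle differentiation. The labels do not say how many shRNA sequences or cell clones each group holds, nor how the cultures of a group were separated. The p-values therefore rest on 2 libraries per group, and whether they cover any spread between shRNA sequences or clones is unknown. Each knockdown was compared with the same 2 scrambled libraries, so the comparisons are not independent. Values per library were not analysed here. For each gene, the authors' log2 fold change and mean normalized count together give a mean level for each group, called the implied mean below.

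The mean normalized counts summed to 42781325 and 42792326 over all genes of the BAF250A and BRD9 tables. The size factors of the BAF250A table were 1.58 and 1.09 for the scrambled libraries and 0.801 and 0.773 for the knockdown libraries, and those of the BRD9 knockdown libraries in their table were 0.841 and 0.782. Each target gene had a negative value under its own shRNA: Arid1a stood at -1.95 (SE 0.48) with BAF250A shRNA and Brd9 at -1.60 (SE 0.54) with BRD9 shRNA per the authors' deposited tables, and because these values were used to set the sign of all fold changes they give no independent check of it. Of 7 myotube markers 6 fell with BAF250A shRNA, and with BRD9 shRNA 0 were called by the authors' DESeq2 test and 0 passed unadjusted. Their summed implied mean went from 617544 to 160560 and from 643093 to 609766 normalized counts. Of the markers of other cells, 3 of 4 fibroblast and 3 of 5 smooth muscle genes rose with BAF250A shRNA, 3 of 5 neuronal genes and 1 of 6 cardiomyocyte genes fell, and the neuronal Snap25 and cardiac Myl7 were listed at 0. With BRD9 shRNA 2 fibroblast genes and 1 neuronal gene rose, 1 cardiomyocyte gene rose and 1 fell, and 0 smooth muscle genes were called, with 1 higher at an unadjusted p below 0.05. Over all genes tested, 17.5% were called lower and 11.2% higher with BAF250A shRNA, and 9.33% and 5.11% with BRD9 shRNA. Of 4 markers of undifferentiated myoblasts, 1 rose and 1 fell in each knockdown. Myf5 fell in both, at -1.83 (SE 0.56) with BAF250A and -1.78 (SE 0.62) with BRD9 shRNA per the authors' deposited tables. Id3 rose with BAF250A shRNA, at 2.48 (SE 0.45), and Pax7 with BRD9 shRNA, at 4.26 (SE 0.53), per the authors' deposited tables. The part of any of these in the results below was not tested. In bulk RNA, fewer differentiated cells and less RNA per differentiated cell cannot be told apart, which touches every result below.

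With scrambled shRNA all 10 genes were expressed, at levels that spanned a wide range when divided by transcript length. The implied mean per kilobase of the longest annotated transcript, in the BAF250A table, was highest for Cacng1 (11983 normalized counts), followed by Jsrp1 (5038), Jph2 (2606) and Cacnb1 (1139). Cacna1s (318), Ryr1 (296) and Stac3 (287) lay close together, and no error could be given to order them. Jph1 (182), Ryr3 (72.4) and Trdn (51.1) were lowest. The pore-forming channel subunit Cacna1s and the main release channel Ryr1 therefore stood at similar levels per length, while the small subunit gene Cacng1 stood far above both. The implied scrambled means computed separately from the 2 tables can be compared, because the libraries are the same. Across 9726 genes with a mean of 300 or more in both tables the BRD9-table value was a median 1.04 times the BAF250A-table value. The 95th percentile over those genes was 1.068. For the members the ratio ran from 1.04 to 1.10, and Stac3, Jph1, Cacna1s and Ryr1 (1.069) lay above that percentile. These ratios show how far the choice of table moved the implied scrambled means. They also depend on the sign given to the fold changes. The opposite sign would set the means of the BAF250A and BRD9 knockdowns beside each other instead, a comparison that was not made. The ratios do not measure the spread of the implied scrambled means between libraries, nor the error of the knockdown means.

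**Figure D1:**
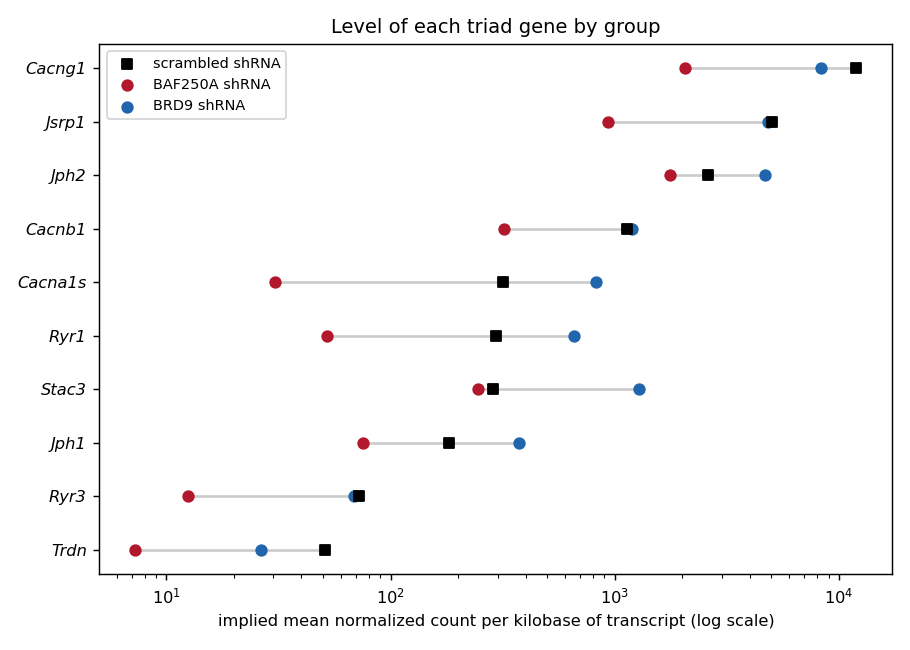
Implied mean normalized count per kilobase of the longest annotated transcript (log axis) for each gene in cells with scrambled shRNA (black squares), BAF250A shRNA (red) and BRD9 shRNA (blue), on the scale of the BAF250A table, with the BRD9 level set by its fold change. The red point lies left of the black square for all 10 genes. The blue point lies furthest right of it for Stac3, Cacna1s, Ryr1, Jph1 and Jph2, of which Stac3 alone was called with BRD9 shRNA.

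In cells with BAF250A shRNA 8 of the 10 genes fell and 0 rose, and the release channels, the dihydropyridine receptor subunits and both triad proteins were among those that fell. Their counts are by the authors' DESeq2 Wald test at an adjusted p below 0.05, and at an unadjusted p below 0.05 the counts were again 8 lower and 0 higher. Over all 16450 genes tested, 17.5% were called lower and 11.2% higher. The median log2 fold change of the 10 genes was -2.47, beside -0.18 over all genes tested and 0.03 over those with a mean of 100 or more. Stac3 and Jph2 were the members that did not pass. The calls depend on the adjustment and on the null assumed for the Wald score. Bonferroni adjustment kept 4 of the 8 (Ryr1, Ryr3, Cacna1s and Cacng1), and an empirical null, in which the Wald scores were centred on their median and divided by their spread over all genes, kept 0, with an adjusted p of 0.0524 for Cacna1s. Division by the spread without the centring, tried after seeing the data, kept Cacna1s alone (adjusted p of 0.0352).

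Both ryanodine receptor genes fell to a similar share of the scrambled level. Ryr1 (gene 20190), the release channel that skeletal muscle uses for contraction, lies on chromosome 7 from 29003340 to 29125179 of mm10. Its implied mean went from 4544 to 796 normalized counts, and its log2 fold change was -2.51 (SE 0.45, adjusted Wald p of 3.91e-07) per the authors' deposited table. That is 17.5% of the scrambled level, with a 95% interval from 9.49% to 32.4%. Ryr3 (gene 20192, chromosome 2 from 112631354 to 113217405), a release channel best known from developing muscle and brain, went from an implied 1120 to 193 normalized counts. Its log2 fold change was -2.53 (SE 0.53, adjusted Wald p of 1.77e-05) per the authors' deposited table, or 17.3% of the scrambled level (95% interval 8.42% to 35.4%). The estimates of the pair lay 0.02 log2 units apart, and their intervals overlap almost wholly.

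All 3 dihydropyridine receptor subunit genes fell. Cacna1s (gene 12292, chromosome 1 from 136052806 to 136119822), the voltage sensor and pore, had the lowest estimate of the 10 genes. Its implied mean went from 1988 to 191 normalized counts, with a log2 fold change of -3.38 (SE 0.49, adjusted Wald p of 8.2e-11) per the authors' deposited table, leaving 9.59% of the scrambled level (95% interval 4.96% to 18.5%). In the annotation 20.0% of the exon bases of Cacna1s overlap the antisense gene Gm37759, and no source used here says whether the counting used strand, so their reads may not be separated. For the other members such overlaps covered at most 4.83% of exon bases (Ryr3 with Aven). Cacng1 (gene 12299, chromosome 11 from 107703218 to 107716476), the gamma subunit, went from an implied 14967 to 2575 normalized counts. Its log2 fold change was -2.54 (SE 0.50, adjusted Wald p of 5.17e-06) per the authors' deposited table. Cacnb1 (gene 12295, chromosome 11 from 98001508 to 98023034), the intracellular beta subunit that helps to bring the channel to the membrane, had the estimate closest to 0 of these subunits. It went from an implied 3867 to 1086 normalized counts, at -1.83 (SE 0.48, adjusted Wald p of 0.00101) per the authors' deposited table, or 28.1% of the scrambled level (95% interval 14.6% to 54.0%). The intervals of all 3 subunits overlap, and differences between subunits were not tested.

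Promoter sequence is shown for members on either side of this result, Cacna1s and Ryr1, which fell, and Jph2, which was not called. RefSeq promoter windows on GRCm38.p6, the assembly that mm10 names, from 250 bases before to 50 after an annotated start, were matched for 4 of the 10 genes (Ryr1, Cacna1s, Cacnb1 and Jph2), in 6 windows. They were searched on both strands for the E-boxes CAGCTG and CAGGTG, which MyoD and myogenin bind, for the MEF2 motif by its name, and for CATTCC, the core of the MCAT motif that TEAD factors bind. Cacna1s is shown at chr1:136052561-136052805 on the plus strand and Ryr1 at chr7:29125180-29125401 on the minus strand, up to the outer edge of each gene. Jph2 is shown for 30 bases at chr2:163397985-163398014 on the minus strand. Capitals mark motif matches.
Cacna1s: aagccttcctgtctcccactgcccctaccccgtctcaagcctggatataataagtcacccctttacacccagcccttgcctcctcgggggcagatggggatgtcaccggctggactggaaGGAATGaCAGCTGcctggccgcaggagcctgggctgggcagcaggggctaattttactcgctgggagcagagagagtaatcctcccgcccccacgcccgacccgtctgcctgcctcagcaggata
Ryr1: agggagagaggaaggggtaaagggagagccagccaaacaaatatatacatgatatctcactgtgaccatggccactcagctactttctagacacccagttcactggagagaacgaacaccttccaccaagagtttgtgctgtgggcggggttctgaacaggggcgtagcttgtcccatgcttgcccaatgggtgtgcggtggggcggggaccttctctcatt
Jph2: gaaggggcggggCAGCTGggagatctgagc
In Cacna1s a CATTCC match on the reverse strand begins at position -130 from the annotated start and a CAGCTG at position -123, with 1 base between them. Jph2 has a CAGCTG at position -9 from the outer of its 2 annotated starts, and no match was found in the windows of Ryr1 and Cacnb1. Among all 32851 promoter windows, 16.3% hold CAGCTG, 20.2% CAGGTG, 3.19% the MEF2 motif and 14.7% CATTCC, so such matches are common, and they were present in a gene that fell and in a gene that was not called.

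The coupling adaptor and the junctophilins had the fold changes closest to 0 with BAF250A shRNA. Stac3 (gene 237611, chromosome 10 from 127501617 to 127508823), an adaptor that skeletal muscle needs to couple the voltage sensor to the release channel, had implied means of 514 and 440 normalized counts. Its log2 fold change was -0.22 (SE 0.49, adjusted Wald p of 0.781) per the authors' deposited table, and the interval from 43.7% to 168% of the scrambled level includes levels well below and well above it. Jph2 (gene 59091, chromosome 2 from 163336242 to 163398049), a junctophilin of heart and skeletal muscle, stood at -0.56 (SE 0.49, adjusted Wald p of 0.423) per the authors' deposited table. Its implied means were 10974 and 7426 normalized counts. Jph1 (gene 57339, chromosome 1 from 16942104 to 17097922), the junctophilin found mainly in skeletal muscle, fell from an implied 876 to 362 normalized counts. It was the member nearest the threshold among those called, at -1.27 (SE 0.48, adjusted Wald p of 0.0323) per the authors' deposited table.

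Both junctional proteins of the reticulum fell. Jsrp1 (gene 71912, chromosome 10 from 80808494 to 80813741) encodes a junctional protein that binds the voltage sensor and calsequestrin, and its implied mean went from 5582 to 1035 normalized counts. Its log2 fold change was -2.43 (SE 0.54, adjusted Wald p of 7.53e-05) per the authors' deposited table. Trdn (gene 76757, chromosome 10 from 33083483 to 33476709) encodes triadin, which anchors calsequestrin to the ryanodine receptor. It went from an implied 231 to 32.8 normalized counts, at -2.81 (SE 0.62, adjusted Wald p of 6.57e-05) per the authors' deposited table. Trdn was the member with the lowest counts and the widest error, and 14.2% of the scrambled level remained (95% interval 6.09% to 33.2%).

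**Figure D2:**
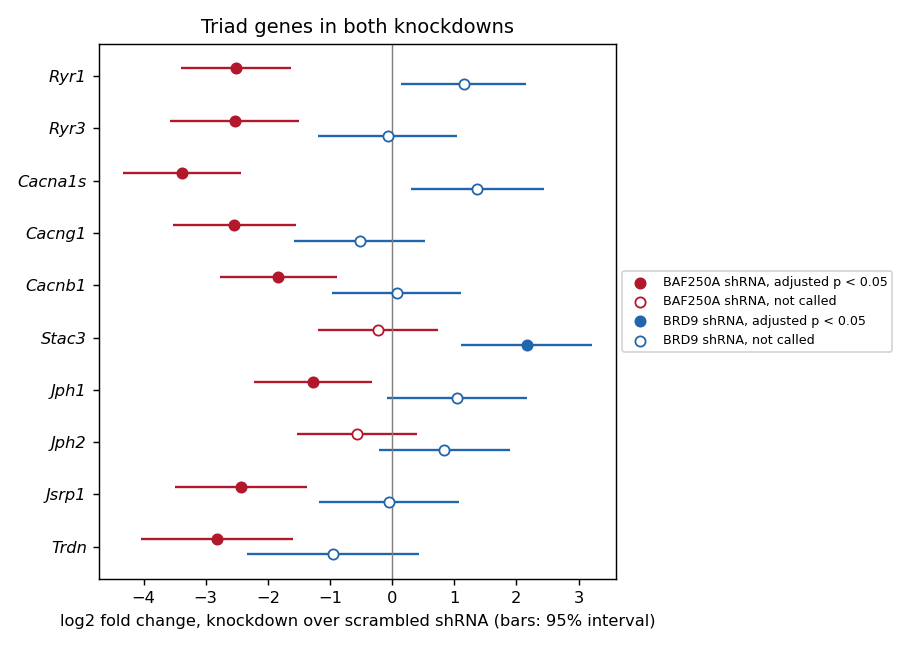
Log2 fold change over scrambled shRNA (x axis) for each gene with BAF250A shRNA (red) and BRD9 shRNA (blue), with bars for the 95% interval from the authors' standard error and filled points for an adjusted p below 0.05. The red points are filled for 8 genes, all left of 0, and Stac3 alone has a filled blue point, at 2.17.

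In cells with BRD9 shRNA 1 of the 10 genes rose and 0 fell, and that gene was Stac3. Over all 17198 genes tested, 5.11% were called higher and 9.33% lower by the same test. Counts of 1 and 0 among 10 genes are near those shares and are no result about the members as a group. At an unadjusted p below 0.05 the counts were 3 higher and 0 lower. The median log2 fold change of the 10 genes was 0.46, beside -0.15 over all genes tested and 0.05 over those with a mean of 100 or more, with 6 members above 0 and 4 below. Stac3 went from an implied 565 to 2537 normalized counts, and its log2 fold change was 2.17 (SE 0.54, adjusted Wald p of 7.94e-04) per the authors' deposited table. That is 449% of the scrambled level (95% interval 216% to 934%). Per kilobase, Stac3 went from 315 to 1417 normalized counts in the BRD9 table, beside Cacnb1 at 1254 and Cacna1s at 885. No error could be given to order these levels. The call of Stac3 was lost under Bonferroni adjustment (adjusted p of 0.982) and under the empirical null (adjusted p of 0.109).

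The channel genes did not pass with BRD9 shRNA, and their values were spread around 0. Cacna1s, with implied means of 2141 and 5529 normalized counts, stood at 1.37 (SE 0.55, adjusted Wald p of 0.0748), and was the member nearest the threshold among those not called per the authors' deposited table. Ryr1, with implied means of 4860 and 10800, stood at 1.15 (SE 0.51, adjusted Wald p of 0.127) per the authors' deposited table. Both 95% intervals lay above the scrambled level before adjustment for the number of genes, at 123% to 542% for Cacna1s and 111% to 446% for Ryr1. The sensor and the main release channel thus had the highest estimates after Stac3. Ryr3 stood at -0.07 (SE 0.57), Cacnb1 at 0.07 (SE 0.53) and Cacng1 at -0.52 (SE 0.54) per the authors' deposited table. Their intervals, 43.7% to 207% for Ryr3, 51.4% to 216% for Cacnb1 and 33.3% to 145% for Cacng1, each include the scrambled level and also changes of about 2-fold. Ryr1 and Ryr3, which fell alike with BAF250A shRNA, had estimates 1.23 log2 units apart with BRD9 shRNA, a difference that was not tested.

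Of the other members, the junctophilins had estimates above 0 and the triad proteins below it, and none was called. Jph1 stood at 1.04 (SE 0.58, adjusted Wald p of 0.261) and Jph2 at 0.84 (SE 0.54, adjusted Wald p of 0.351) per the authors' deposited table. Their implied means went from 951 to 1956 and from 11617 to 20796 normalized counts. Jsrp1 stood at -0.05 (SE 0.57) and Trdn at -0.95 (SE 0.71) per the authors' deposited table. For Trdn the interval ran from 19.8% to 135% of the scrambled level, which includes the scrambled level.

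The effects of the knockdowns were then compared directly, as the log2 fold change with BAF250A shRNA minus that with BRD9 shRNA, divided by the combined standard error, and adjusted by Benjamini-Hochberg across 16311 genes that both tables tested. The difference was below 0 for all 10 genes, with a median of -2.35, beside a median of -0.00 over all genes. It passed for Cacna1s, Ryr1 and Stac3, 3 of 10 lower with BAF250A than with BRD9 shRNA and 0 higher, where 1.99% of all genes were lower and 0.552% higher. Cacna1s differed by -4.75 (SE 0.73, adjusted p of 5.96e-08 by the difference z test) and Ryr1 by -3.67 (SE 0.68, adjusted p of 2.0e-05 by the same z test). Stac3 differed by -2.39 (SE 0.73, adjusted p of 0.0442 by the z test), although it was the member with the smallest change with BAF250A shRNA alone. Ryr3 was nearest the threshold on the other side, at -2.46 (SE 0.78, adjusted p of 0.0582 by the z test). At an interval from -2.83 to 0.03, Jph2 was the member whose difference was least distinct from 0.

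The shared scrambled libraries cancel in this difference, and the combined error leaves this out, which by itself makes that error too large. Whether the deposited standard errors are large enough is unknown, so the test as a whole cannot be called conservative. The empirical null, which kept 0 members in either comparison with scrambled shRNA, was not applied to this difference. When the shared part was taken as a covariance, 8 of the 10 genes passed, all lower with BAF250A shRNA, and Jph2 and Trdn were the 2 that did not. The covariance was an assumed share of the summed squared errors, the same for every gene and not estimated from the data. The count of 8 depends on that choice. The same setting raised the count over all genes from 414 to 1231. With that allowance Ryr3, Jph1, Jsrp1, Cacng1 and Cacnb1 had adjusted p between 2.91e-04 and 0.0039 by the z test.

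**Figure D3:**
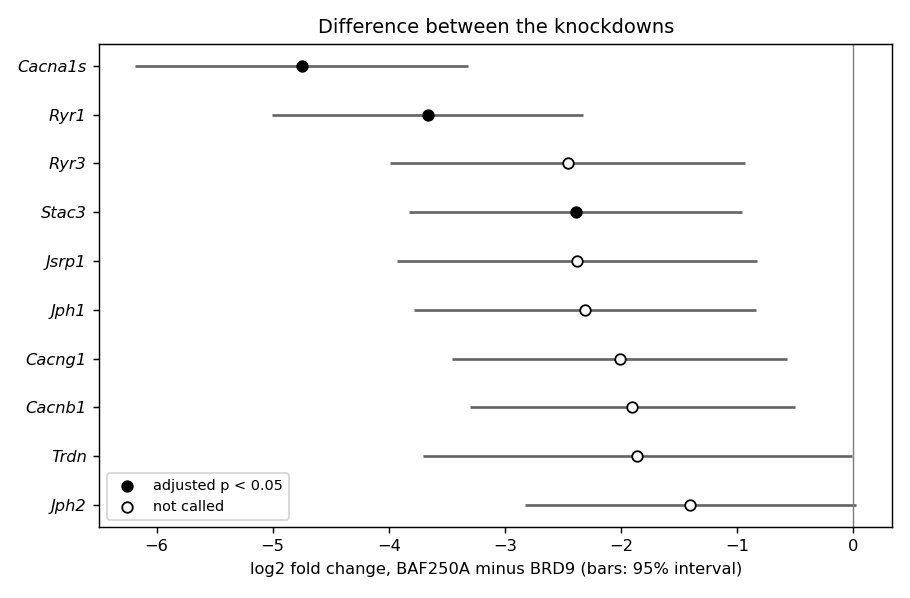
Difference between the log2 fold changes with BAF250A shRNA and BRD9 shRNA (x axis) for each gene, with bars for the 95% interval that treats the tables as independent and filled points for an adjusted p below 0.05. All 10 points lie below 0, from -4.75 for Cacna1s to -1.40 for Jph2, and 3 are filled.

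The remaining genes of excitation-contraction coupling were taken from a list of 50 in 6 groups. With BAF250A shRNA 42 were tested, of which 14 fell and 4 rose, beside 17.5% lower and 11.2% higher over all genes tested. With BRD9 shRNA 43 were tested, of which 1 fell and 3 rose, beside 9.33% and 5.11%. The counts that rose, 4 of 42 and 3 of 43, are near those shares and are no result about the list. The median log2 fold change was -0.47 and 0.14. Genes whose products bind or store calcium beside the release channel were among those that fell with BAF250A shRNA. Of 16 ryanodine receptor partners and triad proteins tested, 8 fell and 2 rose, beside 17.5% and 11.2% over all genes tested. The calsequestrin genes Casq2 and Casq1, whose products hold calcium in the reticulum and are tethered by triadin, stood at -4.66 (SE 0.49) and -3.94 (SE 0.59) per the authors' deposited table. Tmem38a, a potassium-permeable channel of the reticulum that balances charge during calcium release, stood at -3.13 (SE 0.53), and Hrc, a calcium-binding protein that interacts with triadin, at -3.05 (SE 0.44), per the authors' deposited table. Calm2, one of the calmodulin genes, rose by 2.46 (SE 0.42) per the authors' deposited table, but 23.0% of its 31-base words are shared with other genes, so its value is uncertain.

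With BRD9 shRNA 1 of these 16 partners rose and 1 fell, beside 5.11% and 9.33% over all genes tested. These counts are near those shares and are no result about the group. S100a1, a calcium-binding protein that acts on the ryanodine receptor, fell by 1.78 (SE 0.54) with BRD9 shRNA per the authors' deposited table. It also fell by 1.98 (SE 0.51) with BAF250A shRNA per the authors' deposited table. Calm2 stood at 1.65 (SE 0.47) with BRD9 shRNA per the authors' deposited table. These 2 genes were called the same way in both knockdowns, and both comparisons share the scrambled libraries.

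Among 7 genes of the transverse tubule and triad membrane, 2 fell with BAF250A shRNA and 1 rose with BRD9 shRNA. Over all genes tested the shares were 17.5% and 5.11%, and such small counts are no result about the group. Cav3, the caveolin of muscle membranes, had the lowest value of the list, at -5.32 (SE 0.55), per the authors' deposited table for BAF250A. Dysf, which encodes the membrane repair protein dysferlin, was called lower with BAF250A and higher with BRD9 shRNA, the first call by a narrow margin. It stood at -1.17 (SE 0.48, adjusted Wald p of 0.0495) with BAF250A shRNA and at 1.78 (SE 0.52, adjusted Wald p of 0.00632) with BRD9 shRNA per the authors' deposited tables. The BAF250A call of Dysf was lost without a low-count filter (adjusted Wald p of 0.0627) and among protein-coding genes alone (adjusted Wald p of 0.0543). The difference for Dysf was -2.95 (SE 0.71, adjusted p of 0.00233 by the z test). Bin1, which bends membrane into tubules, stood at -0.92 (SE 0.49) and 0.11 (SE 0.53) per the authors' deposited tables and passed neither test.

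Of 6 tested genes of the calcium pumps, their regulators and store refill, 4 fell with BAF250A shRNA, beside 17.5% over all genes tested. With BRD9 shRNA 0 were called by the authors' DESeq2 test, and at an unadjusted p below 0.05 the counts were 2 higher and 1 lower. Atp2a1, the calcium pump of fast muscle, stood at -2.03 (SE 0.50) with BAF250A shRNA and 1.22 (SE 0.55) with BRD9 shRNA per the authors' deposited tables, with 20.5% of its words shared with other genes, chiefly its neighbour Rabep2. The store-operated entry genes Orai1 and Stim1 stood at -1.42 (SE 0.49) and -1.19 (SE 0.46) per the authors' deposited table for BAF250A. Pln, a pump inhibitor, stood at -3.83 (SE 1.44) per the authors' deposited table, and is uncertain at a mean of 5.92 normalized counts and with 62.1% of its words shared. The pump inhibitor gene Sln was listed at 0 in the BAF250A table.

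Of 4 other release channel genes, 2 rose with BAF250A shRNA and 0 fell, beside 11.2% and 17.5% over all genes tested. At an unadjusted p below 0.05 the counts were 2 higher and 1 lower. Itpr2 and Itpr1, inositol trisphosphate receptors that release calcium in most cell types, rose by 1.59 (SE 0.47) and 1.44 (SE 0.48) with BAF250A shRNA per the authors' deposited table. Itpr3 stood at -0.32 (SE 0.43) per the authors' deposited table. The cardiac release channel Ryr2 stood at -3.10 (adjusted Wald p of 0.107) with a mean of 3.75 normalized counts per the authors' deposited table and was not called. With BRD9 shRNA 0 of these 4 genes were called by the authors' DESeq2 test, and 0 passed at an unadjusted p below 0.05.

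Paralogues of the junctophilins and of Stac3 were at low levels or did not pass the test. Jph3 and Jph4, the junctophilins of neurons, had means of 1.73 and 5.99 normalized counts per the authors' deposited table for BAF250A. Stac2 stood at 0.31 (SE 0.45) with BAF250A shRNA and at -0.07 (SE 0.52) with BRD9 shRNA per the authors' deposited tables, at an implied scrambled mean of 9409 normalized counts in the BAF250A table. Stac stood at 1.44 (SE 0.98) and 1.93 (SE 0.90) per the authors' deposited tables, at a mean of 13.5 normalized counts in the BAF250A table. Of the 3 Stac genes, Stac3 was the one called in either knockdown.

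Of the other voltage-gated calcium channel subunits, 6 of 11 were tested in each knockdown. With BAF250A shRNA 0 were called by the authors' DESeq2 test and 0 passed unadjusted. With BRD9 shRNA 1 rose, beside 5.11% over all genes tested. This was Cacng6, a gamma subunit related to Cacng1, which rose by 4.26 (SE 0.84) per the authors' deposited table. Its implied mean with BRD9 shRNA was 95.2 normalized counts against 4.97 with scrambled shRNA, so the size rests on few reads. Cacnb3, a beta subunit gene, stood at 0.60 (SE 0.44) and 0.45 (SE 0.49) per the authors' deposited tables. Cacna2d1, the alpha2delta subunit that muscle channels carry, stood at -0.43 (SE 0.50) and 0.48 (SE 0.61) per the authors' deposited tables. The pore genes Cacna1c, Cacna1d and Cacna1f had means of at most 1.72 normalized counts and were not tested.

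Between the knockdowns, 7 of 42 genes of the list differed, all lower with BAF250A than with BRD9 shRNA, beside 1.99% lower and 0.552% higher over all genes. The difference was -5.12 for Casq2, -4.61 for Cav3, -4.04 for Hrc and -3.87 for Srl, which encodes the reticulum protein sarcalumenin. Atp2a1, Dysf and Tmem38a were the others, at -3.24, -2.95 and -2.61. Casq2 had the largest difference in the list, as Cacna1s had among the members.

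**Figure D4:**
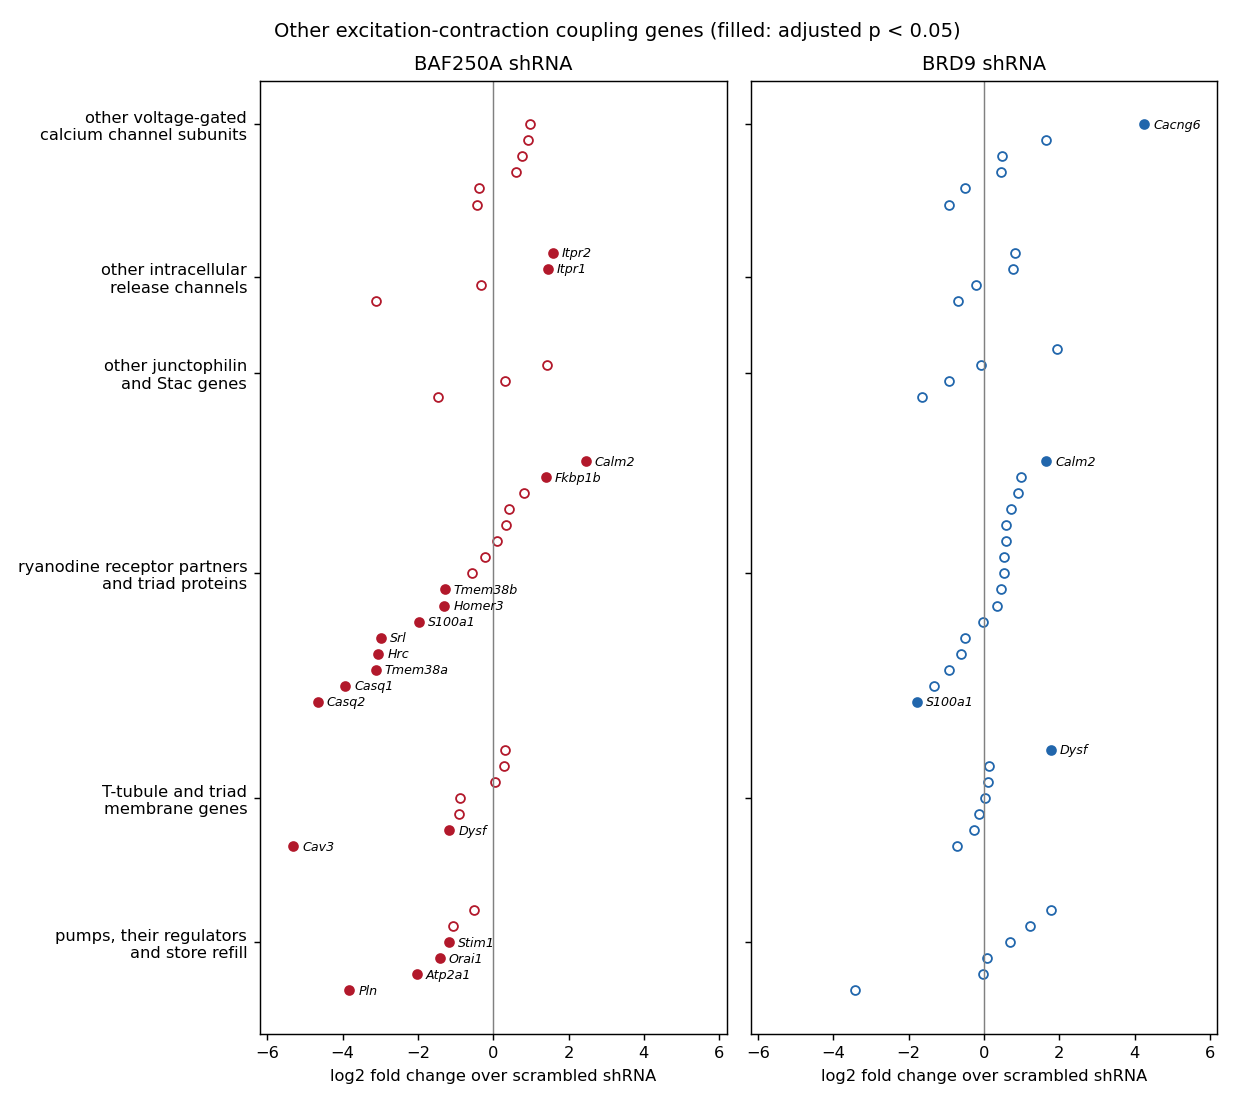
Log2 fold change over scrambled shRNA (x axis) for each tested gene of the 6 groups (rows) with BAF250A shRNA (left) and BRD9 shRNA (right), with filled and named points for an adjusted p below 0.05. With BAF250A shRNA 14 filled points lie below 0 and 4 above, and with BRD9 shRNA 1 lies below and 3 above.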

How the data were processed

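The material was 2 comparison tables, each of 4 C2C12 libraries. Bowtie, DESeq2, HISAT, RSEM, StringTie and mm10 are listed in the submitters' processing notes, without versions or the step each served. The deposited columns are, per the file headers, a mean normalized count (a signal averaged over libraries after division by size factors), a log2 fold change with its standard error on the log2 scale, the Wald score, a p-value and an adjusted p-value. The numerator is not stated, and the sign was read from the targeted genes. No count model was fitted, and the authors' Wald test was used at an adjusted p below 0.05.

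Implied means take each fold change as a ratio of group means. Intervals (95%) are normal, from the deposited standard errors. Size factors came from genes with a single read in 1 library. The difference between knockdowns used a two-sided z test, checked on simulated data, over all genes tested in both tables. The simulation drew normal errors from the deposited standard errors, so it cannot show whether those errors suit these data. Transcript lengths, 31-base words shared with other genes, and exon overlaps came from GENCODE M21, and coordinates, biotypes and promoters from RefSeq on GRCm38.p6, which mm10 names. Python 3.11.15, pandas 2.3.3 and scipy 1.17.1 were used.

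The members and lists were chosen with earlier results of these data known. Each group of the list was described by up to 4 called genes with the largest change, and by paralogues of members. Srl, Bin1, Itpr3, Cacnb3, Cacna2d1, Sln and the untested pore genes were added after their values were seen. The closing section gives the alternatives tried.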

Additional observations from a re-analysis of the deposited data

How the results depend on the processing

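No paired analysis was possible because the deposited tables carry no values per library, so the replicate letters could not be used as a block, and leaving out each library and a refit with edgeR were not run for the same reason. Of the 10 genes, 8 were called with BAF250A shRNA and 1 with BRD9 shRNA. These counts, and which genes they held, stayed as they were without a low-count filter, at a mean of 10 or more, with centred fold changes and among protein-coding genes. A minimum log2 fold change of 1 could remove no call, since every called gene lay beyond it. Bonferroni adjustment left 4 with BAF250A shRNA and 0 with BRD9 shRNA, and the empirical null left 0 and 0. For the other coupling genes the counts of 18 and 4 became 7 and 1 under Bonferroni adjustment and 2 and 1 under the empirical null. The 18 became 17 without a filter and among protein-coding genes, both losing Dysf, and 17 at a mean of 10 or more. Over all genes, 4729 and 2483 calls became 1565 and 940 under Bonferroni adjustment and 693 and 873 under the empirical null, and 1625 with BRD9 shRNA among protein-coding genes alone. The empirical null first centres the Wald scores on their median, -0.32 (BAF250A) and -0.24 (BRD9), and then divides them by 2.18 and 1.58, the robust spread of all genes, so it treats wide change across the genome as error. Division without centring, chosen after seeing the data, left 1 member (Cacna1s) and 5 other coupling genes with BAF250A shRNA, and 0 and 1 with BRD9 shRNA. The count of 3 differing between the knockdowns was 3 when centred or filtered, and 2 under Bonferroni adjustment, which lost Stac3. It was 8 when the shared controls were allowed for by an assumed share of the error. Over all genes the 414 calls became 123 under Bonferroni adjustment and 1231 with that allowance. The empirical null was not applied to the difference. Centring the fold changes or the difference, the only settings that can turn a sign, turned none among the members.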

Other observations

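The tables hold more genes with a single read in a scrambled library than in a knockdown library. For BAF250A, 426 and 336 genes had their only read in 1 of the scrambled libraries, against 42 and 11 in the knockdown libraries. For BRD9 these numbers were 432 and 339 against 17 and 14. The size factors differ by about 2-fold at most (1.58 against 0.773 in the BAF250A table). All 10 triad genes had mean normalized counts of 132 (Trdn, BAF250A table) or more, far above this range. Whether a difference in library preparation or counting goes with the groups was not tested. Such a difference would enter both comparisons with scrambled shRNA. It would cancel in the difference between the knockdowns only if it lay in the scrambled libraries alone, which was not tested.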
